A study of Mus musculus with 14 samples.

Results

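Bone marrow, the tissue in which blood cells form in adult mice, was set against liver, which forms blood in the fetus and is a metabolic and secretory organ in the adult. The comparison holds 4 of the 14 libraries of a mouse transcript signature survey of 7 tissues, chosen by their titles: 2 libraries titled bone marrow, 1 from female and 1 from male C57BL6 mice, and 2 titled liver, 1 from female mice (right lobe) and 1 from male mice (left lobe). The titles give different lobes while both liver library codes end in LL, so that female and right lobe, and male and left lobe, cannot be told apart. The labels name no treatment and no genotype beyond the strain, and neither an age nor the number of animals behind a library. Each library counts 20-base tags that begin at a GATC site of a transcript, the site cut by the enzyme DpnII near the 3′ end. A transcript copy is meant to give 1 tag whatever its length, and a copy without such a site gives none. The share of copies that gave a tag is not known for any gene. Levels are therefore compared between tissues for the same gene, and a low level beside another gene need not mean few transcripts.

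In the adult, blood cells arise in marrow from stem cells through precursors that take on the equipment of 1 lineage: hemoglobin and a flexible membrane skeleton in red cells, granule proteins in neutrophils and eosinophils, antigen receptor parts in B cells. Hepatocytes, the main cells of the liver, make most plasma proteins, build glucose and urea, and modify fats, bile acids and foreign compounds with cytochrome P450 enzymes. The 2 organs are also joined through iron, heme and growth factors, since the liver supplies the iron carrier and thrombopoietin that marrow cells use.

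The tags below are the most abundant ones, over the 4 libraries, of genes on which the results turn. They are shown because every level in the text is a count of such tags. Capitals mark the DpnII site, and the 16 bases after it are transcript sequence, written 5′ to 3′ as deposited.
Hbb-b2: GATCgtgattgtgctgggcc
Hba-a1: GATCccgtcaacttcaagct
Ngp: GATCaccttgtgaggcctat
S100a9: GATCtttgcctgtcatgaga
Slc4a1: GATCgtgccgcccactctgc
Hemgn: GATCtgaacaattcttattc
Alas2: GATCctactttgggaacatg
Alas1: GATCgcccccaccccgcatc
Mup1: GATCtgcattccatcctgtc
Alb: GATCcctggtggaaaggcgg
Serpina1a: GATCccacacataaatgacc
Apoa1: GATCgacaaggccagcgaga
Cyp2e1: GATCtgactctgtcttctgg
Hpx: GATCagccttgagaccatag

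The 4 libraries held between 2466184 and 3794733 counts, of which 2015243 to 3307165 were assigned to genes by tags of class codes 1 to 4. Levels are given as counts per 1000000 gene counts (CPM), first for the female and then for the male library of a tissue. Over the 10304 genes tested, the Spearman correlation of log2(CPM + 1) was 0.966 between the 2 marrow libraries, 0.947 between the 2 liver libraries, and 0.247 to 0.250 between a marrow and a liver library. The 10 most abundant genes took 43.3% and 41.8% of the gene counts in marrow, against 26.6% and 39.3% in liver. Adult globins made up 36.5% (95% exact binomial interval 36.4 to 36.5) and 35.2% (35.1 to 35.2) of the gene counts in the marrow libraries, against 0.079% (0.0752 to 0.083) and 0.0894% (0.0862 to 0.0927) in the liver libraries. Major urinary proteins made up 0.000256% (0.000103 to 0.000528) and 0.000513% (0.000281 to 0.000862) in marrow, against 6.05% (6.02 to 6.08) and 23.8% (23.7 to 23.8) in liver. These intervals cover counting error only.

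Genes were tested with edgeR's quasi-likelihood F test on the 4 libraries, and a gene was called when its Benjamini-Hochberg adjusted p over all tested genes was under 0.05 and its fold at least 2. Marrow was higher for 2978 genes, 28.9% of those tested, and lower for 3062 genes, 29.7%. In all, 58.6% of the tested genes were called, and each count of called list members below is to be read against these shares. By level alone, both marrow libraries were above both liver libraries in CPM for 52.8% of the tested genes and below both for 30.4%, which is the background for each remark on overlap. With 2 libraries per tissue the p-values measure only the spread between these libraries, and that spread holds any difference between the sexes. Fold changes are marrow over liver, on the log2 scale with a standard error, after TMM scaling. Their median over all tested genes was 0.03, against 0.57 when library totals were used in place of TMM. With library totals 3987 genes were called higher and 2265 lower, a share of 63.8% higher among the calls against 49.3%. Because CPM carry no TMM scaling, the ratio of 2 CPM values exceeds the fitted fold by about this shift. Where both libraries of a tissue had 0 counts of a gene, the fold is given as a bound computed with a floor of 3 counts in each of those libraries, which is 0.907 to 1.49 CPM. Such a bound, written as at least N-fold, is a ratio of CPM without TMM scaling, while list medians that set genes at their bound use bounds with TMM scaling, as the fitted values do. In bulk tissue, fewer cells of a type and less RNA per cell cannot be told apart.

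**Figure D1:**
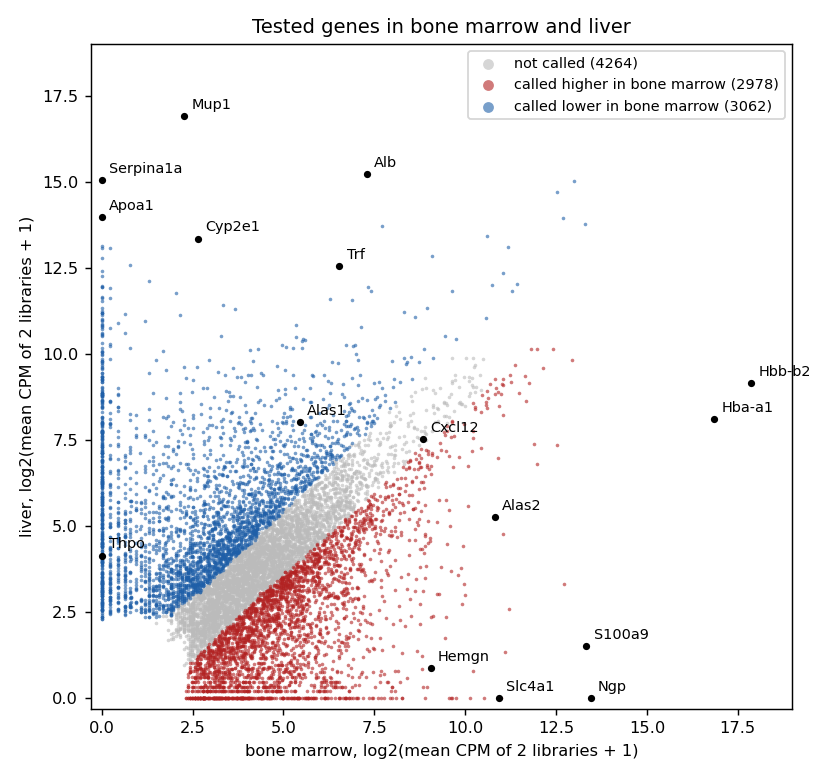
Mean level of each of the 10304 tested genes in bone marrow (horizontal axis) and liver (vertical axis), as log2 of the mean CPM of 2 libraries plus 1. Red points are the 2978 genes called higher in marrow, blue points the 3062 called lower, and grey points the rest. Hbb-b2 and Hba-a1 lie at the far right, and Serpina1a and Apoa1 lie on the left edge because they had 0 counts in marrow.

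The gene marking each tissue was checked first. Hemgn, which encodes a nuclear protein of blood precursors, had 485 and 577 CPM in marrow, against 0.496 and 1.21 CPM in liver. The groups did not overlap, and the log2 fold change was 8.52 ± 0.44 (adjusted p = 3.31e-08). Albumin (Alb), the main plasma protein, had 169 and 143 CPM in marrow, against 46078 and 30611 CPM in liver, a log2 fold change of -8.46 ± 0.59 (adjusted p = 1.96e-07). The marrow counts of Alb were on 1 tag that runs straight into a stretch of A.
Alb, tag with all marrow counts: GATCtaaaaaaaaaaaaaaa
Alb, main liver tag: GATCcctggtggaaaggcgg
The first of these tags had 462 and 389 counts in marrow, against 263 and 331 in liver. The second had 0 counts in both marrow libraries, against 87480 and 96930 in liver. Without tags that end in 10 or more A, an alternative chosen after these values were seen, Alb was at 0 in both marrow libraries and at least 34763-fold lower in marrow than in liver. Such tags made up 0.563% to 0.747% of the gene counts in the 4 libraries. Of the 6040 calls, 6003 were made again without them.

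Red cell genes were abundant in the marrow libraries. The beta globin cluster Hbb-b2, whose title in the files is the adult major chain, had 248463 and 230556 CPM in marrow, against 548 and 587 CPM in liver. Its log2 fold change was 8.16 ± 0.74 (adjusted p = 1.62e-06). The alpha globin Hba-a1 had 116142 and 121363 CPM in marrow, against 243 and 308 CPM in liver (8.17 ± 0.68, adjusted p = 8.05e-07). Both chains of adult hemoglobin thus stood at similar folds over liver. Adult globin genes have near-identical copies, and the tags do not separate them here. Hba-x, an embryonic alpha-type globin, had 2.56 and 5.5 CPM in marrow, against 0 in both liver libraries, and was below the level needed for testing.

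The list of red cell membrane and maturation genes moved as a block. All 22 members tested, of 23 measured, were higher in marrow, with a median log2 fold change of 8.69 (5.85 with genes at 0 in liver set at their bound), beside 0.03 for all tested genes. Together they reached 10515 and 11329 CPM in marrow, against 154 and 139 CPM in liver, and 12 of the 23 had no count in either liver library. Car2, carbonic anhydrase 2, which hydrates carbon dioxide, had 2205 and 2541 CPM in marrow, against 3.97 and 6.05 CPM in liver (8.25 ± 0.44, adjusted p = 3.44e-08). Slc4a1, the band 3 anion exchanger of the red cell membrane, had 1968 and 1953 CPM in marrow, against 0 in both liver libraries, and was at least 1637-fold higher (adjusted p = 3.31e-08). Trim10, a protein of late erythroid cells, had 1105 and 1132 CPM in marrow, against 0 in both liver libraries, at least 934-fold higher (adjusted p = 3.31e-08). Mkrn1, a ubiquitin ligase, had 989 and 969.7 CPM in marrow, against 28.8 and 12.4 CPM in liver. Bpgm, which makes the 2,3-bisphosphoglycerate that lowers the oxygen affinity of hemoglobin, had 818 and 756 CPM in marrow, against 7.94 and 16 CPM in liver. These 5 genes separated the tissues without overlap.

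The globin counts in liver were accompanied by some red cell genes and not by others. Per 1000 beta globin counts, Slc4a1 had 7.92 and 8.47 counts in marrow, against 0 in both liver libraries, where beta globin had 1104 and 1940 counts. Trim10 had 4.45 and 4.91 per 1000 in marrow, against 0 in both liver libraries. Hba-a1 kept a ratio of 467 and 526 per 1000 in marrow, against 443 and 525 in liver. Alas2 had 6.61 and 8.57 per 1000 in marrow, against 14.5 and 115 in liver, where the male library was the high one. Car2 had 8.87 and 11 per 1000 in marrow, against 7.25 and 10.3 in liver, and Hemgn had 1.95 and 2.5 in marrow, against 0.906 and 2.06 in liver. Bpgm had 3.29 and 3.28 per 1000 in marrow, against 14.5 and 27.3 in liver, and Mkrn1 had 3.98 and 4.21 in marrow, against 52.5 and 21.1 in liver. Relative to beta globin, Bpgm and Mkrn1 were thus higher in both liver libraries, and Car2 was similar or lower on 8 and 20 liver counts. The Hemgn ratios in liver rest on 1 and 4 counts. Its main tag, with 95.5% of the gene's counts, had 0 counts in both liver libraries, so no such reading is made for Hemgn. The part of blood remaining in the liver samples in these values was not tested.

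Heme, the iron-holding ring of hemoglobin and of the cytochromes P450, is made by 8 steps, and the first has a separate enzyme for red cells (Alas2) and for other tissues (Alas1). Of the 9 members, 7 were higher in marrow, 1 was lower and 1 was not called, with a median log2 fold change of 1.96. Alas2 had 1643 and 1977 CPM in marrow, against 7.94 and 67.4 CPM in liver (4.86 ± 0.75, adjusted p = 0.000127). Alas1 went the other way, with 41 and 45.1 CPM in marrow, against 207 and 308 CPM in liver (-3.18 ± 0.34, adjusted p = 6.82e-06). The 2 forms of the first enzyme thus had opposite signs, and neither form overlapped between tissues.

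The later steps named here showed smaller folds than Alas2. Fech, which inserts the iron, had 839 and 791 CPM in marrow, against 127 and 83.2 CPM in liver (2.44 ± 0.27, adjusted p = 8.99e-06). Uros and Ppox were higher by log2 fold changes of 1.96 ± 0.25 and 1.86 ± 0.37. Urod had 244 and 198 CPM in marrow, against 52.1 and 8.16 CPM in liver, with the 2 liver libraries far apart (2.49 ± 0.51, adjusted p = 0.00105). Cpox had 247 and 375 CPM in marrow, against 129 and 78.9 CPM in liver (1.07 ± 0.28, adjusted p = 0.00493), and its call was lost without the male marrow library (0.81, adjusted p = 0.115) and without the male liver library (0.91, under the minimum fold). Alad, the second enzyme, had 317 and 307 CPM in marrow, against 144 and 94 CPM in liver, and its log2 fold change of 0.88 ± 0.25 was below the minimum fold. With library totals Alad was called higher, at 1.39.

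Iron genes went both ways. Of 21 tested members of the iron list, 4 were higher in marrow, 14 lower and 3 not called, with a median log2 fold change of -1.49, and the list summed to 3219 and 3696 CPM in marrow, against 17607 and 14199 CPM in liver. Tfrc, the transferrin receptor of dividing cells and red cell precursors, had 551 and 491 CPM in marrow, against 22.3 and 23.6 CPM in liver (3.94 ± 0.30, adjusted p = 3.76e-07). Hmox1, heme oxygenase 1, which breaks heme down, had 139.6 and 204 CPM in marrow, against 11.9 and 7.26 CPM in liver (3.65 ± 0.31, adjusted p = 8.61e-07). Slc25a37, the carrier that brings iron into mitochondria, was the third. Slc40a1, the iron exporter ferroportin, had 408 and 439.8 CPM in marrow, against 169 and 58.7 CPM in liver (1.44 ± 0.34, adjusted p = 0.00289), and fell to 0.97, under the minimum fold, without the male liver library.

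The second transferrin receptor, Tfr2, had 28.6 and 33 CPM in marrow, against 283 and 226 CPM in liver (-3.58 ± 0.27, adjusted p = 3.44e-07), opposite to Tfrc. Slc25a28, the other mitochondrial iron carrier, was lower by -1.24 ± 0.34, opposite to Slc25a37, but its call was lost with library totals (-0.68, adjusted p = 0.128), in the fit on all 14 libraries (adjusted p = 0.0568) and without the female marrow library (adjusted p = 0.0834). Slc11a2, an iron importer, and Steap3, an iron reductase, were not called (0.43 ± 0.36 and 0.69 ± 0.32). With library totals both were called higher, at 1.03 and 1.26, and Slc11a2 also by its most abundant tag alone (1.94) and without the male liver library (1.17).

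Several plasma proteins that handle iron or heme were lower in marrow. Transferrin (Trf), which carries iron in plasma, had 76.9 and 107 CPM in marrow, against 6374 and 5584 CPM in liver (-6.57 ± 0.43, adjusted p = 1.14e-07). Hemopexin (Hpx), which binds free heme, had 0 and 0.367 CPM in marrow, against 3847 and 3831 CPM in liver (-14.53 ± 0.67, adjusted p = 3.31e-08). Haptoglobin (Hp), which binds free hemoglobin, had 377 and 406 CPM in marrow, against 2583 and 1726 CPM in liver (-2.98 ± 0.31, adjusted p = 5.75e-06). Its marrow level was thus well above 0, unlike that of Hpx. Ceruloplasmin (Cp), a copper protein that oxidises iron, was lower by -5.32 ± 0.43 on the log2 scale. The ferritin heavy chain Fth1, part of the iron store, had 1384 and 1637 CPM in marrow, against 2194 and 2007 CPM in liver (-1.03 ± 0.31, adjusted p = 0.0115). This call was lost under 7 of the 16 alternatives, with library totals among them (-0.48, adjusted p = 0.239).

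Hamp2, a paralog of the iron hormone hepcidin, was named after its values were seen. It had 0 counts in both marrow libraries, against 906 and 9.68 CPM in liver, and was at least 416-fold lower in marrow (adjusted p = 0.000629). The 2 liver libraries were far apart, the female one high. A cluster titled as similar to ferritin light chain 1 had 1698 and 1732 CPM in marrow, against 4882 and 3366 CPM in liver (-1.79 ± 0.33, adjusted p = 0.000501).

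**Figure D2:**
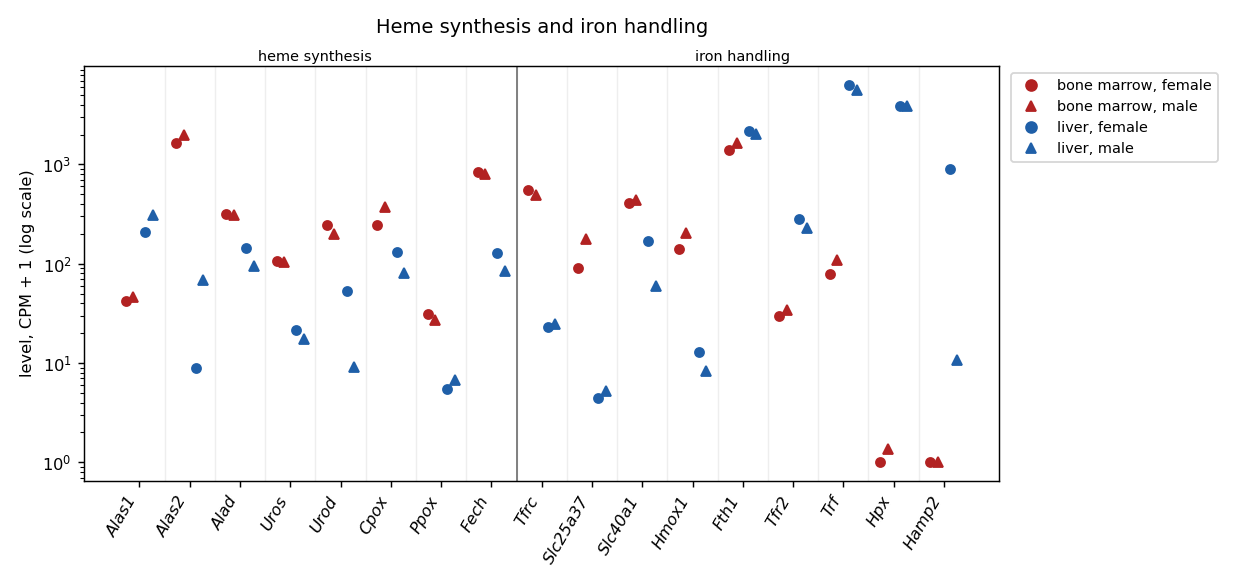
Levels of 8 heme synthesis and 9 iron genes in the 4 libraries, as CPM plus 1 on a log axis, with bone marrow in red left of liver in blue, circles for female and triangles for male libraries. Alas2 is high in marrow and Alas1 in liver, and Trf, Hpx and Hamp2 stand above marrow in liver, where Hamp2 is at 906 CPM in the female and 9.68 CPM in the male library.

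Transcription factors showed the same division. GATA1 and KLF1 are the factors that drive red cell genes, and SPI1 those of myeloid cells. Of 18 tested blood transcription factors, 17 were higher in marrow and 1 lower, with a median log2 fold change of 4.31 (3.63 with genes at 0 in liver at their bound). Klf1 had 391 and 320.2 CPM in marrow, against 10.9 and 1.81 CPM in liver (5.45 ± 0.49, adjusted p = 1.41e-06). Gata1 had 147 and 142 CPM in marrow, against 0 in both liver libraries, at least 121-fold higher (adjusted p = 7.45e-08). Lmo2, a bridging partner of these factors, had 181 and 223 CPM in marrow, against 0 and 1.21 CPM in liver (7.43 ± 0.51, adjusted p = 1.68e-07). Lyl1 had 169 and 123 CPM in marrow, against 26.3 and 22.4 CPM in liver (2.04 ± 0.28, adjusted p = 4.51e-05). The exception was Cebpa, which serves granulocyte precursors and hepatocytes alike, with 19.1 and 23.8 CPM in marrow, against 179 and 112 CPM in liver (-3.27 ± 0.27, adjusted p = 8.19e-07).

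Of 16 tested hepatocyte transcription factors, 15 were lower in marrow and Hhex was not called. The median log2 fold change was -8.31 (-4.82 with genes at 0 in marrow at their bound), and 12 of the 18 measured had no count in either marrow library. Cebpb had 50.6 and 53.2 CPM in marrow, against 207 and 363 CPM in liver (-3.07 ± 0.37, adjusted p = 2e-05). Nr1i3, a receptor that responds to foreign compounds, had 1.1 and 3.67 CPM in marrow, against 428 and 134 CPM in liver (-7.30 ± 0.57, adjusted p = 4.88e-07). Ppara, a receptor that governs fatty acid burning, had 0 counts in both marrow libraries, against 116 and 44.8 CPM in liver, at least 73.1-fold lower. Nr1h4, the bile acid receptor, was at least 66.2-fold lower, with 0 counts in marrow and 102 and 43.8 CPM in liver. Nr1h3, an oxysterol receptor that macrophages also hold, was lower by a smaller log2 fold change of -2.87 ± 0.29.

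The promoters of a few members were read for the binding words of 2 such factors, since their genes moved together. Windows run from 250 bases before to 50 bases after each gene's start, from RefSeq on build GRCm38.p6, on the gene's own strand, and were searched on both strands. The GATA word AGATAA was in 6 of 15 windows of the red cell membrane list, in 2 of 7 of heme synthesis, in 4 of 18 of the late neutrophil list (22.2%), in 3 of 16 of hepatocyte transcription factors (18.8%), in 3 of 20 of plasma carriers (15%), in 1 of 18 of clotting genes, and in 11.4% of all 27025 windows. Among tested genes with a window, it was in 7.29% of those called higher and 7.66% of those called lower. The HNF1 word, whose letters stand in capitals in the Gc and Afm windows, was in 0 of 1770 windows of genes called higher, in 20 of 1933 of genes called lower (1.03%), and in 0.437% of all windows. A match is a description of these letters, not of binding. Capitals mark the GATA word in a heme enzyme and a red cell gene, and the HNF1 word in 2 plasma protein genes.
Alas2, chrX:150547167-150547466, plus strand: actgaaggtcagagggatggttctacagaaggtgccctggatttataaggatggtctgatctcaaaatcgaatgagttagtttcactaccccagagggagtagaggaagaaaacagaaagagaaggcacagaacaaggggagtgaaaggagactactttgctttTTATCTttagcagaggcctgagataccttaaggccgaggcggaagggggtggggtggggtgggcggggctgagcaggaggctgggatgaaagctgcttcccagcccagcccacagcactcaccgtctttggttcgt
Hemgn, chr4:46404134-46404433, minus strand: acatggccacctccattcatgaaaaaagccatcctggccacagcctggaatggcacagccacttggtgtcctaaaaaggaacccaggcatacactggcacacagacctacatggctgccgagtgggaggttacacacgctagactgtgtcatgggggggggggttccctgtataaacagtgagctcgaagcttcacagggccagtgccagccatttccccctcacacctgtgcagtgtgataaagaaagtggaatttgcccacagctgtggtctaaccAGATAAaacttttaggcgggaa
Gc, chr5:89457849-89458148, minus strand: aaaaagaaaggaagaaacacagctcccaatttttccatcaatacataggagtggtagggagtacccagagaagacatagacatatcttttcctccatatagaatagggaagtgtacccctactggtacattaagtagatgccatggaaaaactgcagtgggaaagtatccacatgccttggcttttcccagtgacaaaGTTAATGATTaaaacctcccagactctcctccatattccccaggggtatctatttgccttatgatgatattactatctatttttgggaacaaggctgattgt
Afm, chr5:90518699-90518998, plus strand: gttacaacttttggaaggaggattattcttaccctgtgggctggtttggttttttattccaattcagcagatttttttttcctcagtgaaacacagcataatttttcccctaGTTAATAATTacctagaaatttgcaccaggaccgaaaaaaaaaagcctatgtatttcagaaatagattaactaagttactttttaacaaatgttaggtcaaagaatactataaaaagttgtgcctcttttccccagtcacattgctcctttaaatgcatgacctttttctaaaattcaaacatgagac
Gc encodes the vitamin D carrier of plasma and had 0 counts in both marrow libraries, against 5629 and 4138 CPM in liver. Afm, afamin, had 0 counts in both marrow libraries, against 286 and 195 CPM in liver. Both genes were chosen for their match, after their values were seen.

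Granulocyte genes were higher in marrow, most of them by large folds. Neutrophils make primary granules as early precursors and later granules as they mature. Of 8 tested members of the primary granule list, 7 were higher in marrow and Ctsc was not called, with a median log2 fold change of 10.83 (6.71 with genes at 0 in liver at their bound). Mpo, myeloperoxidase, had 858 and 857 CPM in marrow, against 0 in both liver libraries, at least 716-fold higher (adjusted p = 3.31e-08). Elane, neutrophil elastase, had 643 and 848 CPM in marrow, against 0 in both liver libraries, at least 622-fold higher (adjusted p = 3.44e-08). Prtn3, proteinase 3, was at least 211-fold higher, and Ctsg, cathepsin G, had 463 and 517 CPM in marrow, against 0.496 and 0 CPM in liver. Ctsc, which activates these proteases and acts in many tissues, had 63.4 and 60.9 CPM in marrow, against 124 and 44.8 CPM in liver. By CPM the female liver library was above both marrow libraries and the male below both. After TMM scaling its fitted log2 fold change was -0.90 ± 0.33 (adjusted p = 0.0297), under the minimum fold. Without the male liver library Ctsc was called lower (-1.35, adjusted p = 1.3e-07).

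All 19 tested late granule and calgranulin genes were higher in marrow, with a median log2 fold change of 9.57 (6.28 with genes at 0 in liver at their bound). Their sum was 35959 and 34877 CPM in marrow, against 286 and 119 CPM in liver. Ngp, neutrophilic granule protein, had 12758 and 9751 CPM in marrow, against 0 in both liver libraries, at least 9395-fold higher (adjusted p = 3.75e-08). S100a9, a subunit of calprotectin, had 9864 and 10820.1 CPM in marrow, against 3.47 and 0.302 CPM in liver (12.11 ± 0.70, adjusted p = 5.2e-08). Its partner S100a8 had 26 and 35.9 CPM in marrow, against 0 in both liver libraries. Lyz2, lysozyme, which macrophages also make, had 5588 and 6118 CPM in marrow, against 221 and 107 CPM in liver (4.67 ± 0.39, adjusted p = 8.74e-07). Lcn2, a binder of bacterial iron carriers, had 2093 and 2114 CPM in marrow, against 48.6 and 4.54 CPM in liver (5.95 ± 0.71, adjusted p = 1.61e-05). The liver level of Lcn2 was the female library's. Camp, cathelicidin, was at least 1629.8-fold higher in marrow, with 1719.7 and 2185 CPM there and 0 counts in liver.

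The 10 tested genes of eosinophils, basophils and mast cells were higher in marrow as well (median 8.88, or 4.39 with genes at 0 in liver at their bound). They summed to 9646 and 6608 CPM in marrow, against 13.9 and 9.68 CPM in liver. Most of this was 1 cluster of eosinophil ribonucleases, named Ear1 by accession and Ear2 by title, with 7996 and 5371 CPM in marrow, against 11.9 and 6.05 CPM in liver (9.06 ± 0.51, adjusted p = 4.54e-08). Ear genes are near-identical, so the member is uncertain. Prg2, the major basic protein of eosinophil granules, had 935 and 630.5 CPM in marrow, against 0 in both liver libraries, at least 654-fold higher. Epx, eosinophil peroxidase, had 344 and 267 CPM in marrow, against 0 in both liver libraries, at least 255-fold higher. In each of these 3 the female marrow library was the higher one.

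Lymphocyte genes were higher in marrow at lower levels. All 14 tested B lineage genes, of 17 measured, were higher, with a median log2 fold change of 6.31 (5.21 with genes at 0 in liver at their bound) and sums of 1344 and 1366 CPM in marrow, against 13.4 and 3.63 CPM in liver. Cd79b, a signalling chain of the B cell receptor, had 428 and 468 CPM in marrow, against 1.49 and 1.21 CPM in liver (7.80 ± 0.38, adjusted p = 3.31e-08). Its partner Cd79a had 335 and 253 CPM in marrow, against 0.496 and 0.302 CPM in liver (8.90 ± 0.47, adjusted p = 3.44e-08). Vpreb3, a gene of B cell precursors, had 236 and 258 CPM in marrow, against 0 and 0.302 CPM in liver. Pou2af1, a coactivator of B cell genes, was higher by 7.69 ± 0.56 on the log2 scale. Of 8 tested T and natural killer cell genes, 7 were higher in marrow and Cd4 was not called (0.60 ± 0.55, adjusted p = 0.365), though it was called higher without the male liver library (1.89, adjusted p = 0.02) and by its most abundant tag alone (2.45, adjusted p = 0.00657). The 14 measured summed to 144 and 122 CPM in marrow, against 16.4 and 11.2 CPM in liver. Gzma, a granule protease, had 32.6 and 34.1 CPM in marrow, against 0 in both liver libraries, at least 27.8-fold higher (adjusted p = 2.66e-06). Cd3d, part of the T cell receptor complex, had 44 and 22 CPM in marrow, against 1.49 and 2.42 CPM in liver (3.41 ± 0.52, adjusted p = 0.000115).

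All 13 tested megakaryocyte and platelet genes were higher in marrow (median 7.05, or 4.68 with genes at 0 in liver at their bound), with sums of 1172 and 1283 CPM in marrow, against 31.8 and 22.7 CPM in liver. Pf4, platelet factor 4, had 289 and 318 CPM in marrow, against 1.49 and 1.51 CPM in liver (7.05 ± 0.37, adjusted p = 3.44e-08). Ppbp, a platelet chemokine precursor, had 228 and 259 CPM in marrow, against 0 in both liver libraries, at least 203-fold higher. Vwf, which endothelium also makes, had 83.2 and 80.0 CPM in marrow, against 10.4 and 4.23 CPM in liver (3.03 ± 0.33, adjusted p = 7.16e-06).

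Macrophages are present in both organs. Of 13 tested monocyte and macrophage genes, 11 were higher in marrow and Csf1r and Cd14 were not called, with a median log2 fold change of 3.25. Tyrobp, a signalling adaptor, had 848 and 694 CPM in marrow, against 37.2 and 25.7 CPM in liver (4.10 ± 0.30, adjusted p = 2.72e-07). Cybb, the oxidase subunit of phagocytes, had 394 and 400.1 CPM in marrow, against 12.9 and 7.26 CPM in liver (4.81 ± 0.31, adjusted p = 1.02e-07). Ctss, cathepsin S, had 249 and 232 CPM in marrow, against 49.6 and 33.9 CPM in liver (2.01 ± 0.25, adjusted p = 2.69e-05). Genes for antigen presentation by class II molecules followed, with 6 of 6 tested members higher in marrow and a median of 2.61. Cd74, the invariant chain, had 1585 and 1163 CPM in marrow, against 169.7 and 138 CPM in liver (2.63 ± 0.30, adjusted p = 1.17e-05).

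Kupffer cells are the resident macrophages of the liver, and their list divided. Of 11 tested members, 5 were higher in marrow, 3 lower and 3 not called, with a median log2 fold change of 0.35. Clec4f, a lectin of Kupffer cells, had 0.366 and 0 CPM in marrow, against 162 and 83.2 CPM in liver (-9.50 ± 0.55, adjusted p = 5.23e-08). Vsig4, a complement receptor, had 2.56 and 2.2 CPM in marrow, against 44.7 and 29 CPM in liver (-4.43 ± 0.37, adjusted p = 7.61e-07). Folr2 was lower by -2.51 ± 0.50. The 5 that were higher are genes that marrow macrophages can also express. Cd163, the receptor for haptoglobin with hemoglobin, had 85 and 128 CPM in marrow, against 26.3 and 22.7 CPM in liver (1.57 ± 0.27, adjusted p = 0.000316). Fcna, a ficolin, had 198 and 243 CPM in marrow, against 72.4 and 35.7 CPM in liver (1.54 ± 0.28, adjusted p = 0.000474). C1qa, a subunit of complement C1q, had 398 and 267 CPM in marrow, against 105 and 40.8 CPM in liver (1.73 ± 0.35, adjusted p = 0.000933). Cd5l had 57.5 and 63.1 CPM in marrow, against 81.4 and 48.4 CPM in liver, and the groups overlapped in CPM. After TMM scaling its log2 fold change was -0.61 ± 0.25 (adjusted p = 0.0459), toward liver but under the minimum fold.

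Stem and progenitor genes were low in counts. Of 15 measured, 9 were tested, and 7 were higher in marrow, Hlf lower and Ly6a not called. Myb, a factor of dividing precursors, had 63.7 and 81.8 CPM in marrow, against 0 in both liver libraries, at least 60.7-fold higher (adjusted p = 3.37e-07). Cd48 had 30.8 and 27.9 CPM in marrow, against 3.47 and 2.72 CPM in liver (2.70 ± 0.38, adjusted p = 5.98e-05). Hlf, a stem cell factor that hepatocytes also hold, had 1.1 and 1.1 CPM in marrow, against 35.7 and 26 CPM in liver (-5.27 ± 0.42, adjusted p = 5.2e-07).

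Genes of DNA replication and cell division were higher in marrow in 28 of 30 tested members, with a median log2 fold change of 5.62 (5.26 with genes at 0 in liver at their bound). Their sum was 4400.0 and 4789 CPM in marrow, against 131 and 108 CPM in liver. Rrm2, the ribonucleotide reductase subunit that limits DNA synthesis, had 922 and 965 CPM in marrow, against 16.9 and 8.47 CPM in liver (5.74 ± 0.34, adjusted p = 6.35e-08). Mki67, the Ki-67 antigen, had 444 and 461 CPM in marrow, against 0.992 and 0.605 CPM in liver (8.59 ± 0.41, adjusted p = 3.31e-08). Mcm7, of the replicative helicase, had 442 and 531 CPM in marrow, against 14.9 and 12.1 CPM in liver (4.63 ± 0.30, adjusted p = 1.01e-07). Cdk1, the mitotic kinase, was higher by 5.77 ± 0.36, and Ube2c, of mitotic protein destruction, by 9.65 ± 0.51. The other 2 members were not called.

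Some growth factors that the liver is known to make were lower in marrow. Thpo, thrombopoietin, which drives platelet formation, had 0 counts in both marrow libraries, against 20.8 and 12.7 CPM in liver, at least 15.2-fold lower (adjusted p = 4.89e-06). Igf1, insulin-like growth factor 1, had 9.89 and 22.7 CPM in marrow, against 306 and 257 CPM in liver (-4.65 ± 0.37, adjusted p = 5.27e-07). Its receptor Igf1r had 19.8 and 13.2 CPM in marrow, against 1.49 and 0 CPM in liver (4.20 ± 0.74, adjusted p = 0.000345). The ligand Igf1 and its receptor thus stood on opposite sides, and neither overlapped between the tissues. Il6ra, the receptor for interleukin 6, was the exception among receptors, with 0.733 and 0.367 CPM in marrow, against 5.95 and 4.84 CPM in liver (-3.71 ± 0.63, adjusted p = 0.000279).

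Of the 7 tested growth factors and chemokines, 3 were higher in marrow, 2 lower and 2 not called. Tgfb1, transforming growth factor beta 1, had 76.2 and 82.2 CPM in marrow, against 4.47 and 4.23 CPM in liver (3.61 ± 0.31, adjusted p = 9.73e-07). Csf1, the macrophage growth factor, had 16.9 and 9.9 CPM in marrow, against 5.46 and 0.605 CPM in liver (1.83 ± 0.63, adjusted p = 0.0227). Its call was lost without the female marrow library (1.37, adjusted p = 0.115), without the male liver library (0.94, adjusted p = 0.115) and in DESeq2's Wald test (adjusted p = 0.0559). Angpt1, angiopoietin 1, had 5.13 and 4.77 CPM in marrow, against 0.496 and 0.302 CPM in liver (3.02 ± 0.72, adjusted p = 0.00302). That call was lost without the female marrow library (adjusted p = 0.0623) and in DESeq2's Wald test (adjusted p = 0.0517). Cxcl12, the chemokine that holds precursors in marrow, had 428 and 479.7 CPM in marrow, against 214 and 155 CPM in liver (0.77 ± 0.25, adjusted p = 0.0168), under the minimum fold. Kitl, stem cell factor, had 23.1 and 19.8 CPM in marrow, against 9.92 and 7.26 CPM in liver (0.80 ± 0.33, adjusted p = 0.0531). With library totals both were called higher, at 1.30 and 1.34, and Kitl also when counted by its most abundant tag alone (2.74, adjusted p = 0.000386).

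Of the 14 tested receptors, 12 were higher in marrow, Il6ra was lower and Csf1r was not called, with a median log2 fold change of 3.45 (3.29 with genes at 0 in liver at their bound). Cxcr4, the receptor for Cxcl12, had 72.2 and 84.4 CPM in marrow, against 0 and 0.605 CPM in liver (6.99 ± 0.52, adjusted p = 3.22e-07). Epor, the erythropoietin receptor, had 42.1 and 42.5 CPM in marrow, against 0.992 and 0.302 CPM in liver (5.56 ± 0.49, adjusted p = 1.22e-06). Kit, the receptor for stem cell factor, had 18 and 19.1 CPM in marrow, against 3.47 and 2.12 CPM in liver (2.22 ± 0.42, adjusted p = 0.000573). Thus the receptors of Cxcl12 and Kitl were called while the 2 ligands were not. Receptors of the colony-stimulating factors came next. Csf2ra had 209 and 204 CPM in marrow, against 12.9 and 6.95 CPM in liver (3.89 ± 0.30, adjusted p = 3.63e-07). Csf2rb and Csf2rb2, both titled as a beta chain of the Csf2 receptor, were higher by 2.55 ± 0.37 and 2.16 ± 0.47, and Csf3r, for the granulocyte factor, by 5.13 ± 0.65. Lymphoid receptors Il7r and Il2rg were higher by 4.40 ± 0.60 and 2.98 ± 0.45. Flt3, of early progenitors, had 4.03 and 5.87 CPM in marrow, against 0.992 and 0 CPM in liver (3.01 ± 0.85, adjusted p = 0.00842). Its call was lost without the male liver library (1.92, adjusted p = 0.125) and in DESeq2's Wald test (adjusted p = 0.0614). Csf1r, the receptor of macrophages, had 46.2 and 34.8 CPM in marrow, against 39.2 and 27.5 CPM in liver (-0.24 ± 0.27, adjusted p = 0.458), and its tissues overlapped.

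**Figure D3:**
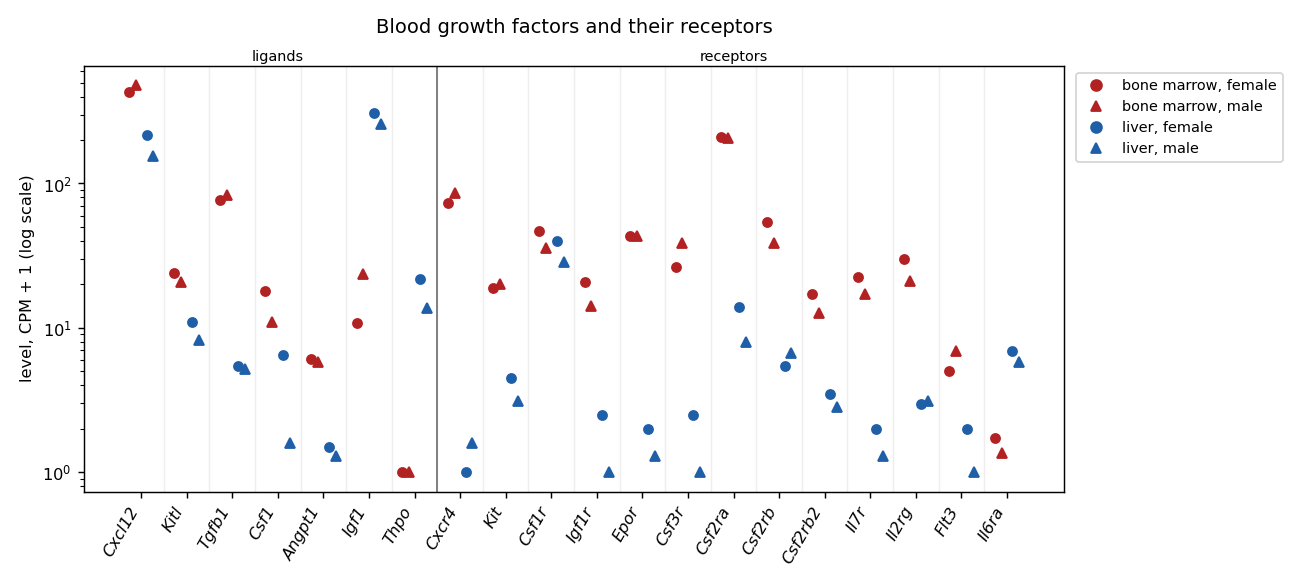
Levels of 7 growth factors or chemokines and 13 receptors in the 4 libraries, as CPM plus 1 on a log axis, with bone marrow in red left of liver in blue, circles for female and triangles for male libraries. Points at 1 had no counts. Thpo is seen in liver alone at 20.8 and 12.7 CPM, and Csf2ra stands at 209 and 204 CPM in marrow, against 12.9 and 6.95 CPM in liver.

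Stroma and bone genes, the non-blood part of marrow, were 8 higher, 2 lower and 4 not called of 14 tested (median 1.73). Vcam1, an adhesion molecule of marrow stroma and macrophages, had 115 and 150.0 CPM in marrow, against 14.4 and 10.9 CPM in liver (2.85 ± 0.27, adjusted p = 2.53e-06). Ibsp, bone sialoprotein, had 48.4 and 45.8 CPM in marrow, against 0 in both liver libraries, at least 39.3-fold higher (adjusted p = 9.15e-07). Lepr, a marker of marrow stromal cells, had 20.9 and 19.8 CPM in marrow, against 3.97 and 0.302 CPM in liver (2.96 ± 0.59, adjusted p = 0.000904). Postn, periostin, was at least 8.17-fold lower in marrow, with 0 counts there and 10.4 and 7.56 CPM in liver. Of 4 tested fat cell genes, 3 were higher in marrow and 1 lower. Adipoq, adiponectin, had 21.2 and 14.7 CPM in marrow, against 0.992 and 0.302 CPM in liver. Car3, a carbonic anhydrase that the liver also makes, had 11.7 and 11.7 CPM in marrow, against 1944 and 3072 CPM in liver (-8.33 ± 0.51, adjusted p = 7.17e-08) and made up most of the list's liver sum. The list summed to 135 and 121 CPM in marrow, against 1961 and 3095 CPM in liver. Muscle genes were low but lay on the marrow side, with 10 measured members summing to 27.1 and 29.3 CPM in marrow, against 3.97 and 4.84 CPM in liver. Both marrow libraries were above both liver libraries for 6 of them and below both for 0. Of the 2 tested, 1 was higher in marrow and 1 not called.

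Most genes of fetal liver and the embryo were near the floor in both tissues. Of 7 measured only 2 were abundant enough to test, and neither was called. Mest, an imprinted gene of growing tissue, had 26 and 23.1 CPM in marrow, against 19.8 and 9.37 CPM in liver (0.28 ± 0.33, adjusted p = 0.473), well above the floor. Igf2bp3, an RNA-binding protein, had 5.13 and 6.24 CPM in marrow, against 0.992 and 3.33 CPM in liver (0.65 ± 0.58, adjusted p = 0.343). Afp, alpha-fetoprotein, had 1.1 and 2.2 CPM in marrow, against 0.992 and 0.605 CPM in liver. The Afp values are at or near 3 counts per library, so no difference was detectable at this depth. The 13 symbols of this list include globins and growth genes that had no cluster of that name in the files used here.

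Plasma protein genes were a large part of the liver libraries. All 24 tested carriers and apolipoproteins were lower in marrow, with a median log2 fold change of -12.75 (-10.74 with genes at 0 in marrow at their bound) and sums of 419 and 358 CPM in marrow, against 118828 and 94666 CPM in liver. Serpina1a, the alpha-1 antitrypsin that inhibits neutrophil elastase, had 0 counts in both marrow libraries, against 26876 and 40435 CPM in liver, at least 30604-fold lower (adjusted p = 8.91e-08). Elane, its target, was thus counted in marrow alone and the inhibitor in liver alone. Serpina1 genes are close copies, so the member is uncertain. Apoa1, the main protein of high-density lipoprotein, had 0 counts in both marrow libraries, against 12977 and 19248 CPM in liver, at least 14651-fold lower. Ahsg, fetuin A, was at least 4937-fold lower, with 6742 and 4117 CPM in liver. Apoe, which macrophages also make, had 228 and 186 CPM in marrow, against 14227 and 12433 CPM in liver (-6.55 ± 0.47, adjusted p = 2.46e-07).

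Clotting genes were lower in marrow in 21 of 21 tested members (median -10.85, or -8.36 with genes at 0 in marrow at their bound). The 3 fibrinogen chains had 0 counts in both marrow libraries. Fgb had 3838 and 2094 CPM in liver and was at least 2697-fold lower in marrow. Fga and Fgg were at least 1856-fold and 1883-fold lower. Serpinc1, antithrombin, had 3.66 and 3.3 CPM in marrow, against 2631 and 1832 CPM in liver (-9.82 ± 0.44, adjusted p = 3.31e-08). F2, prothrombin, had 0.366 and 2.2 CPM in marrow, against 2481 and 1497 CPM in liver (-11.05 ± 0.57, adjusted p = 3.31e-08).

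Complement genes went both ways, most of them lower in marrow. Of 25 tested members, 20 were lower in marrow, 4 higher and 1 not called, with a median log2 fold change of -7.80 (-7.08 with genes at 0 in marrow at their bound). C3, the central protein, had 132 and 145 CPM in marrow, against 2179 and 1311 CPM in liver (-4.16 ± 0.33, adjusted p = 4.82e-07). C8g had 3.3 and 1.1 CPM in marrow, against 1381 and 776 CPM in liver (-9.40 ± 0.50, adjusted p = 3.44e-08). Cfb, a part of the alternative pathway, was lower by -7.80 ± 0.36 on the log2 scale, and Cfi, a protease that cleaves C3b, was at least 449-fold lower. Of the genes that were higher, 2 are C1q clusters and Cfp encodes properdin, a product of neutrophils and macrophages. Cfp had 48.4 and 65.7 CPM in marrow, against 16.9 and 14.2 CPM in liver (1.33 ± 0.28, adjusted p = 0.0012). C1qc had 48.7 and 44 CPM in marrow, against 14.9 and 13 CPM in liver (1.19 ± 0.28, adjusted p = 0.00268), a call lost in the fit on all 14 libraries (1.21, adjusted p = 0.156). The member not called was a C1q cluster named C1qb by accession and titled as the alpha chain, with 94.9 and 82.2 CPM in marrow, against 48.1 and 46.6 CPM in liver (0.35 ± 0.25, adjusted p = 0.238). The C1q clusters thus differed among themselves, and which chain each holds is uncertain. Cfd, complement factor D, was the fourth, and its call was lost in DESeq2's Wald test (adjusted p = 0.283).

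All 7 urea cycle genes were lower in marrow, with a median log2 fold change of -7.92 (-6.78 with genes at 0 in marrow at their bound). The cycle turns ammonia into urea. Cps1, the entry enzyme, had 0 counts in both marrow libraries, against 2672 and 1331 CPM in liver, at least 1820.1-fold lower. Otc, the next enzyme, was at least 438-fold lower, with 465 and 497 CPM in liver. The third and the fourth enzyme kept counts in marrow, where Ass1 had 7.69 and 9.9 CPM, against 1533 and 1395 CPM in liver (-7.92 ± 0.39), and Asl had 16.9 and 13.9 CPM, against 686 and 651 CPM in liver (-5.98 ± 0.34). The carrier Slc25a15 was lower by -6.48 ± 0.34 and Nags, which makes the activator of Cps1, by -6.78 ± 0.61. Arg1, arginase 1, had 0 counts in both marrow libraries, against 11.9 and 9.07 CPM in liver, at least 9.54-fold lower (adjusted p = 1.48e-05).

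All 21 tested genes of glucose production and amino acid breakdown were lower in marrow, 13 of them with no count there. Tat, tyrosine aminotransferase, had 2589 and 3687 CPM in liver and was at least 2853-fold lower in marrow. Tdo2, which opens the tryptophan ring, was at least 2338-fold lower, Pck1, of glucose production, at least 2125-fold, and Mat1a, which makes S-adenosylmethionine, at least 2041-fold. All 15 bile acid genes were lower too. Slc27a5, which activates bile acids, had 0.366 and 0 CPM in marrow, against 1539.8 and 878 CPM in liver (-12.81 ± 0.59, adjusted p = 3.31e-08). The uptake carriers Slco1b2 and Slc10a1 were at least 705-fold and 568-fold lower, each with a female liver level over 3 times the male one.

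Genes with tissue forms of a glucose enzyme divided, with 12 higher in marrow, 9 lower and 7 not called of 28 tested (median 0.36). Glycogen synthase 2 (Gys2) was at least 178-fold lower, and ketohexokinase (Khk), of fructose use, was lower by -6.09 ± 0.32. The pyruvate kinase Pkm had 154 and 201 CPM in marrow, against 9.92 and 10.3 CPM in liver (3.56 ± 0.29, adjusted p = 7.59e-07). The hexokinases Hk1, Hk2 and Hk3 were higher in marrow by 5.18, 3.68 and 3.55 on the log2 scale, and were named after their values were seen.

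Of 24 tested cytochrome P450 and related genes, 23 were lower in marrow and 1 was higher, with a median log2 fold change of -12.52 (-8.67 with genes at 0 in marrow at their bound). Cyp2e1, which oxidises ethanol, had 4.76 and 5.87 CPM in marrow, against 15789.7 and 5102 CPM in liver (-11.38 ± 0.69, adjusted p = 6.83e-08). Cyp3a11, which oxidises many drugs, was at least 3675-fold lower, with 0 counts in marrow and 4247 and 3835 CPM in liver. Cyp2c29 and Cyp2c50 were at least 1621-fold and 1172-fold lower. The exception was Cyp4f18, which acts on leukotriene B4 in neutrophils, with 67 and 66.8 CPM in marrow, against 0.992 and 0 CPM in liver (6.76 ± 0.56, adjusted p = 7.27e-07). Among conjugating enzymes, 22 of 23 tested were lower and Nat2 was not called, though it was called lower without the male liver library (-1.28, adjusted p = 0.00394). Mgst1, a membrane glutathione transferase, had 74 and 79.2 CPM in marrow, against 3331 and 2819 CPM in liver (-5.87 ± 0.37, adjusted p = 8.91e-08). Gsta3 was lower by -12.42 ± 0.53 and Gstm1 by -5.74 ± 0.35.

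Fat and sterol genes were lower in marrow in 28 of 30 tested members, with a median log2 fold change of -3.67, smaller than in the lists of plasma proteins. Hmgcs1, of sterol synthesis, had 9.89 and 11.4 CPM in marrow, against 592 and 292 CPM in liver (-5.86 ± 0.36, adjusted p = 6.98e-08). Scd1, which makes monounsaturated fat, had 61.2 and 34.1 CPM in marrow, against 1873 and 849 CPM in liver (-5.31 ± 0.43, adjusted p = 6.42e-07). Lcat, which esterifies plasma cholesterol, was lower by -7.96 ± 0.37. The 2 members not called, Lpl and Cd36, had log2 fold changes of 0.53 and 0.76. With library totals both were called higher, and 27 members lower, and Cd36 was also called higher without the female liver library (1.16, adjusted p = 0.000553).

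**Figure D4:**
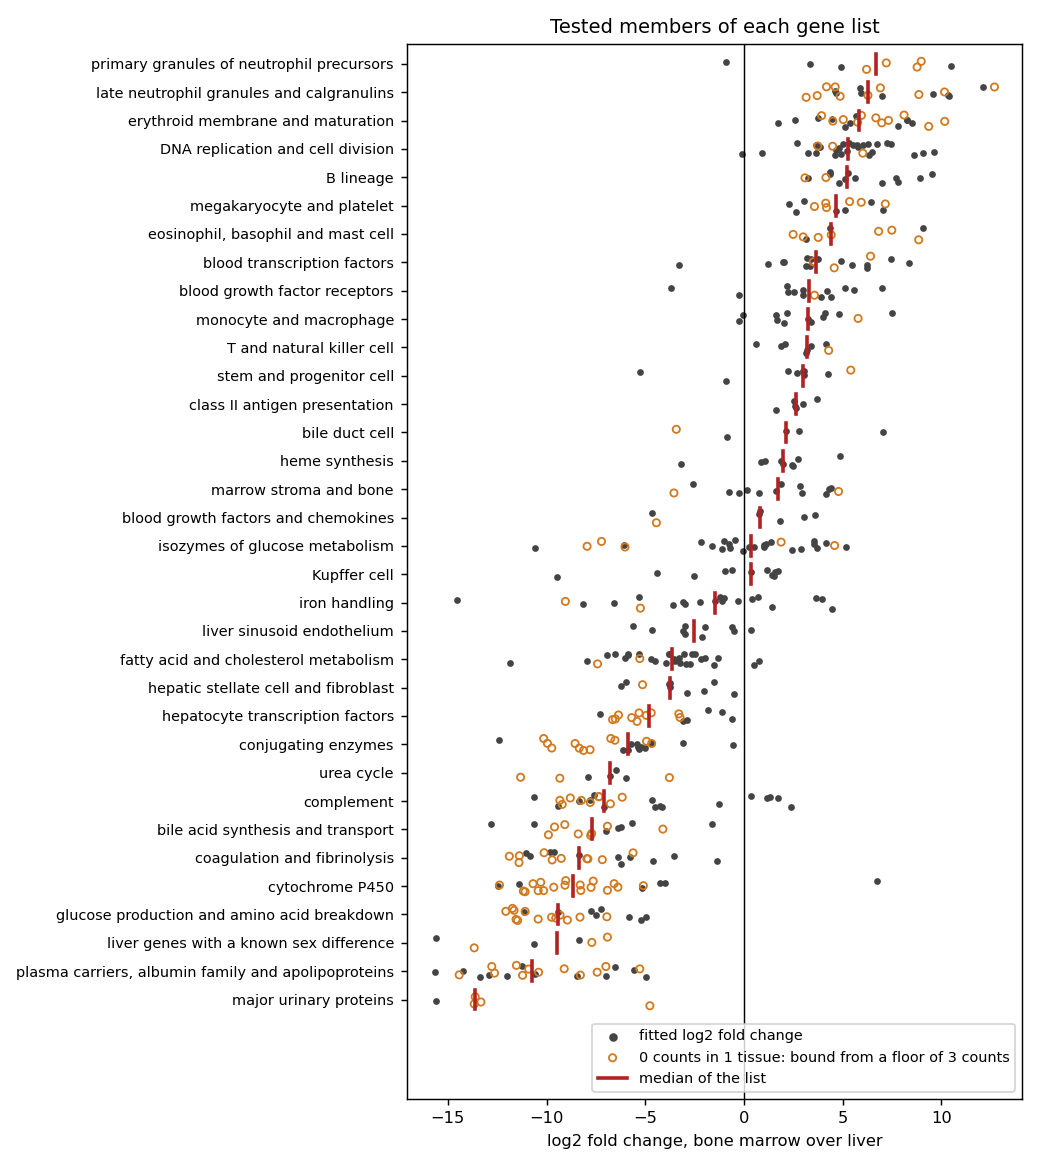
Log2 fold change (bone marrow over liver) of the tested members of each gene list with at least 5 such members, ordered by the list's median with genes at 0 at their bound, which is the red bar. Filled points are fitted values and open points are bounds for genes with 0 counts in both libraries of 1 tissue. Blood cell lists lie at the right, with medians of 3.25 and above for 10 lists, heme synthesis is at 1.96, and the lists of hepatocyte products lie at the left, down to -13.62 for the major urinary proteins.

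Major urinary proteins are pheromone carriers that the liver secretes, and their levels differed between the 2 liver libraries. All 5 tested members were lower in marrow. Mup1 had 2.56 and 5.13 CPM in marrow, against 51202 and 192881 CPM in liver (-15.60 ± 1.26, adjusted p = 5.95e-07). Mup20, known as darcin, had 0 counts in both marrow libraries, against 387 and 16898 CPM in liver, at least 7859-fold lower (adjusted p = 8.31e-05). Mup5 had 0 counts in marrow, against 2265 and 11891 CPM in liver, at least 6437-fold lower, and Mup3 was at least 8174-fold lower. Mup4 was the least abundant, with 10.4 and 28.1 CPM in liver. All 5 had the higher level in the male liver library, and copies of these genes are so alike that reads may be shared among them.

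Of 1029 genes with a mean of at least 100 CPM in liver, 19 differed by over 5-fold between the 2 liver libraries (1.85%), against 0 of 977 such genes between the 2 marrow libraries. The median fold between the 2 libraries over these genes was 1.38 in liver and 1.13 in marrow. These are folds of CPM without TMM scaling, so the unequal share of major urinary proteins in the 2 liver libraries enters them. The list of genes known to differ by sex in mouse liver had 15 measured members, and only 6 passed the filter for testing, since genes counted in 1 liver library alone fail it. These 6 were lower in marrow. Male-type genes were high in the male liver library: Elovl3, a fatty acid elongase, had 0 counts in marrow, against 3.97 and 274 CPM in liver, and the Cyp4a12 cluster 0 counts in marrow, against 0.992 and 509 CPM in liver. Cyp7b1, an oxysterol hydroxylase, had 0.366 and 0 CPM in marrow, against 38.7 and 429 CPM in liver, and C6, of the complement attack complex, had 1.1 and 0.367 CPM in marrow, against 20.3 and 292 CPM in liver. The carrier Slco1a1 had 17.9 and 146 CPM in liver, and the steroid enzyme Hsd3b5 had 0.992 and 62.3 CPM there, with 0 counts of both in marrow.

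Female-type genes were high in the female liver library. The Cyp2b9 and Cyp2b13 cluster had 0 counts in marrow, against 724 and 0.605 CPM in liver, and Cyp3a41a had 0 counts in marrow, against 654 and 0.302 CPM in liver. Sult3a1, a sulfotransferase, had 123 and 0 CPM in liver, Acot3, an acyl-CoA thioesterase, 104 and 0.907 CPM, and A1bg 44.7 and 0.302 CPM, all with 0 counts in marrow. Both sets thus lie on the side of the liver library that their known sex bias names. With 1 liver library per sex, no test of sex in liver was made, and right and left lobe stand with female and male.

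**Figure D5:**
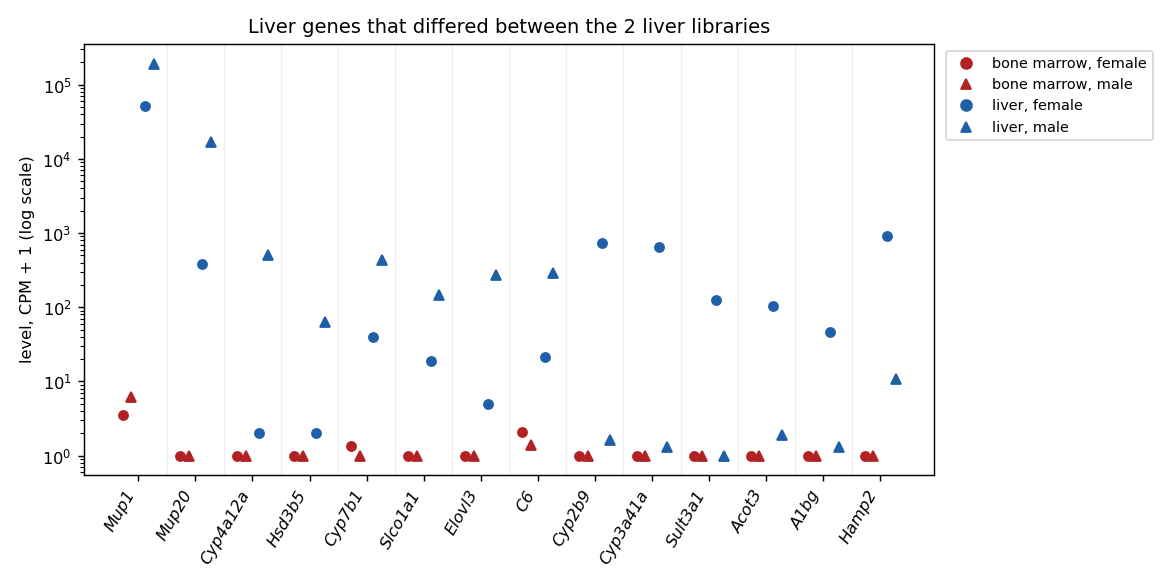
Levels of 14 genes that differed between the 2 liver libraries, as CPM plus 1 on a log axis, with bone marrow in red left of liver in blue, circles for female and triangles for male libraries. The first 8 genes are higher in the male liver library and the last 6 in the female one, while marrow points lie at or near 1.

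Cells that line or support the liver were also on its side. Of 10 tested sinusoid endothelium genes, 7 were lower in marrow and 3 not called (median -2.54). Clec4g, a lectin of these cells, had 2.2 and 0.367 CPM in marrow, against 53.6 and 37.8 CPM in liver (-5.61 ± 0.47, adjusted p = 8.46e-07). Stab2, a scavenger receptor, had 30.8 and 29.3 CPM in marrow, against 34.2 and 29.3 CPM in liver (-0.62 ± 0.26, adjusted p = 0.0525), and the groups overlapped. Marrow has sinusoids of its own. Of 10 stellate cell and fibroblast genes tested, 9 were lower in marrow. Dcn, decorin, had 5.13 and 3.67 CPM in marrow, against 246 and 151 CPM in liver (-5.99 ± 0.34, adjusted p = 4.69e-08). The bile duct list divided. Of 5 tested members, 3 were higher in marrow and 1 lower, while of 9 measured, 3 were above liver in both marrow libraries and 3 below. Krt7, a keratin, had 87.6 and 149 CPM in marrow, against 0.496 and 0.605 CPM in liver (7.04 ± 0.49, adjusted p = 1.76e-07). Krt19 had 7.33 and 20.5 CPM in marrow, against 0.992 and 1.51 CPM in liver, and its call was lost without the male marrow library (1.95, adjusted p = 0.0608). Pancreas acinus genes, a check for tissue carried over, summed to 23.4 and 10.6 CPM in marrow, against 17.9 and 8.47 CPM in liver.

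Besides levels, the tissues differed for a few clusters in which of their tags was counted. Among 974 genes with at least 100 counts in each library and at least 2 tags, 6 (0.616%) had a tag whose share differed by 50 percentage points or more between every marrow and every liver library. Alb met this rule only through the tag that runs into A described above, which had 462 and 389 counts in marrow, against 263 and 331 in liver. Whether that tag comes from Alb transcripts was not tested, so no choice of site is read from it. The sequences show which tags were counted in 3 of the others.
Emilin2, marrow tag: GATCtctgttcccctgggcc
Emilin2, liver tag: GATCagtactgcagttcctg
Tm7sf2 cluster, marrow tag: GATCcttctaataaacttat
Tm7sf2 cluster, liver tag: GATCtcatcatggctctggc
Bcat2, marrow tag: GATCcccggtgctcttcgtg
Bcat2, liver tag: GATCacagactctcaagctc
For Emilin2, an extracellular matrix protein, the first tag held 58.3% and 51.1% of the counts in marrow, against 0.512% and 0.31% in liver. The second tag, written above as the liver tag, held 41.7% and 48.6% in marrow, against 99.5% and 99.7% in liver. Marrow thus counted both sites of Emilin2, and liver almost only the second. For the cluster named Tm7sf2 by accession, a sterol reductase, and titled as a RIKEN clone, the first tag held 98.1% and 98.1% in marrow, against 17.6% and 18.6% in liver. For Bcat2, the mitochondrial branched-chain aminotransferase, the second tag held 0% in both marrow libraries, against 64.5% and 77.8% in liver. The other 2 were a cluster titled with the ERATO Doi 785 segment of chromosome 15 and one titled proline-rich nuclear receptor coactivator 1. Different sites can come from different transcript ends, from a site left uncut or from 2 genes in a cluster, and these were not told apart.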

How the data were processed

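Tags of 20 bases starting at GATC were counted in each library by massively parallel signature sequencing. The counts are raw counts per tag, as deposited by the authors, per the labels' protocols, and each tag carries the authors' class code and UniGene cluster. The aligner and the build are not stated in the labels or files. Counts of tags with class codes 1 to 4, which are not defined in the labels, were summed per UniGene cluster or mitochondrial gene, and CPM are counts scaled to a common sum of those gene counts. Symbols came from RefSeq by accession or title, and promoters from RefSeq on GRCm38.p6. Among tested genes 2560 had no symbol.

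Genes were fitted with edgeR 4.0.16 in R 4.3.3 (TMM, filterByExpr, quasi-likelihood F test, tissue as the only term, 2 residual degrees of freedom). DESeq2 1.42.0 and limma 3.58.1 gave alternatives, beside other scalings, filters, tag sets, a term for sex, and leaving out each library. On simulated data 16 of 50 genes changed 2-fold and 49 of 50 changed 4-fold were recovered, with 6 false calls among 9864 genes. In that simulation most genes had the same mean in both tissues, and all shared 1 common dispersion (0.0436). In the data 58.6% of the tested genes were called, so the false calls do not describe the error under so wide a difference. Each tissue has a library titled female and a library titled male, so its libraries came from different animals. The spread behind the p-values thus holds animal, sex and technical differences together, and in liver any difference between the lobes. These parts were not told apart. The members and gene lists were chosen with earlier results of these data known. Genes were named from the 10 most abundant called genes per direction, not all of which appear here. Also named were up to 5 called members per list and up to 3 against its majority, tested members of short lists, and members not called. Hemgn, S100a8, Slc25a28, Slc25a37, Tfr2, Afm, Gc, Hamp2, Hk1, Hk2, Hk3 and Azin1 lie outside this rule, and apart from the marker Hemgn they were chosen after their values were seen. A few members are counted within their lists but not reported here by name.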

Additional observations from a re-analysis of the deposited data

Results flagged for a closer look

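Tags of the beta globin cluster with class codes 5 and 6, which no level above includes, had 16030 counts in the female and 18658 in the male marrow library, against 16 and 31 counts in the liver libraries.

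For 6 named genes the marrow minus liver difference in CPM, without TMM scaling, had opposite signs in the 2 sexes, each being 1 marrow and 1 liver library. The TMM factors were 1.18 and 1.234 for marrow and 0.9474 and 0.7249 for liver. TMM scaling thus lowers marrow values and raises liver values, so these signs need not hold on the scale of the fit. The fitted log2 fold changes of Ctsc, Cd5l, Hhex and Ly6a were -0.90, -0.61, -0.59 and -0.90. Ctsc differed by -60.7 in females and 16.1 in males, and Cd5l by -23.9 in females and 14.7 in males. Nat2 differed by -7.76 in females and 4.87 in males, Hhex by -6.59 in females and 2.83 in males, and Ly6a by -5.18 in females and 0.594 in males. Stab2 differed by -3.46 in females and 0.0113 in males. In each the female liver library was the higher of the 2 liver libraries by CPM. The difference between the sexes was not tested, and none of the 6 was called between tissues on all 4 libraries. Without the male liver library Ctsc and Nat2 were called lower in marrow, at -1.35 (adjusted p = 1.3e-07 in edgeR) and -1.28 (adjusted p = 0.00394 in edgeR).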

How the results depend on the processing

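Against 2978 genes higher and 3062 lower in marrow, leaving out 1 library gave 2672 to 3043 higher and 2913 to 3108 lower, with the lone library taken to vary like the other tissue's. With sex as a replicate block 2970 were higher and 3046 lower. The sexes do not pair the libraries beyond a number (correlation 0.0176 of the female minus male differences), and the counts moved by less than 1.5 times. The count of genes with a tag choice was 24 of 3204 at a minimum of 30 counts per library, against 6 of 974 at 100 counts, since more genes were examined. For the named genes, 2864 of 2904 values under alternatives kept direction and side of the threshold, 24 lost the call, 15 gained it and 1 turned. The one that turned was Azin1, an inhibitor of antizyme, at -1.85 with all tags and 0.77 (adjusted p = 0.0259 in edgeR) without tags ending in 10 or more A, an alternative chosen after seeing the data. Depth limits low genes: 3 counts are 0.907 to 1.49 CPM. The simulated recovery was low at a fold of 2, which is also the minimum fold for a call.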

Other observations

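The following groups were chosen after their values were seen. Mitochondrial transcripts made up 3.51% and 3.7% of the gene counts in marrow, against 12.6% and 10.9% in liver. Of 13 mitochondrial genes, 10 were lower in marrow, and the 16S ribosomal RNA was not called. Tags assigned to the transfer RNAs for aspartate and threonine were higher, and which transcripts they come from was not tested. Among the lower genes, the call for COX2 (-1.01 ± 0.41, adjusted p = 0.0491) was lost under 6 of the 16 alternatives. COX1, a subunit of cytochrome c oxidase, had 6483 and 9831 CPM in marrow, against 38128 and 27785 CPM in liver, and CYTB, cytochrome b, had 1467 and 1664 CPM in marrow, against 10099.5 and 12118 CPM in liver. Their log2 fold changes were -2.55 ± 0.46 and -3.40 ± 0.42.

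Clusters titled as cytosolic ribosomal proteins, parts of the machinery of translation, ran the other way. Of 84 tested, 45 were higher in marrow, 1 was lower and the rest were not called, with a median log2 fold change of 1.07. They summed to 91278 and 88609 CPM in marrow, against 28050.2 and 25103 CPM in liver. The most abundant marrow cluster without a title and with no count in liver had 2124 and 1942 CPM in marrow, against 0 in both liver libraries, at least 1697-fold higher.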
